A study of Mus musculus with 5 samples.

Results

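The genes described here encode the proteins that bind bacterial lipopolysaccharide and signal through toll-like receptors, and they were followed in whole colon after injection of an IL-11 receptor agonist. The members were chosen by name as Lbp, Cd14, Tlr4, Ly96, Tlr2, Tlr5, Tlr9, Myd88, Irak3 and Ticam1, and every array probe whose accession mapped to one of them was taken. This gave 15 probes of 10 genes among 56605 probes on the array, and all 10 genes were among the 32917 gene features tested. RNA of the colon of wild-type C57BL/B6 mice was hybridised to 5 single-colour Agilent arrays, each with 1 mouse. The 2 Control mice carried no treatment named in the labels, and the authors describe them as untreated. The 3 NT-3N mice had received NT-3N, a modified human IL-11, into a vein and were killed 3 hr later. The mice were 8 weeks old, and the dose was 10 μg according to the injection protocol, while the deposited design text gives 10 mg for the same injection. No vehicle injection is named for the Control mice, so the agonist and the injection itself cannot be told apart. In whole tissue, a change in the number of cells of a type and a change in RNA per cell cannot be told apart either.

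LBP is a secreted acute phase protein, made mainly by the liver, that picks up lipopolysaccharide and hands it to CD14. CD14 passes it to TLR4 and its partner MD-2, the product of Ly96. TLR2 recognises bacterial lipopeptides, TLR5 flagellin and TLR9 unmethylated CpG DNA. MyD88 is the adaptor of most toll-like receptors, TRIF, the product of Ticam1, serves TLR3 and TLR4, and IRAK-M, the product of Irak3, restrains the MyD88 branch.

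A probe is called detected here where the scanner software marked it as well above background. The Control arrays detected 73.1% and 72.9% of their probes and the NT-3N arrays 70.9%, 71.3% and 70.6%, so the share was lower in every NT-3N array. No spot was saturated, and all 15 member probes were detected on all 5 arrays. Levels are given as log2 signal, quantile-normalized between arrays, and a log2 fold change is the NT-3N mean minus the Control mean on that scale. Across gene features the arrays correlated between 0.980 and 0.992, and the 2 Control arrays at 0.984. Control replicate 1 correlated with the NT-3N arrays at 0.981, 0.982 and 0.980. Control replicate 2 correlated with them at 0.986, 0.989 and 0.989, so it was closer to each of them than to Control replicate 1. Control replicate 2 stood apart in B cell markers, whose summed linear signal over 10 tested markers was 1786 there and 5870 in Control replicate 1, against 5227 to 5964 and 6378 in the NT-3N arrays. Smooth muscle markers moved with the groups, since the summed linear signal of 6 was 445700 and 460100 in Control and 326400, 416900 and 387700 in NT-3N, although limma called 0 of them, with 2 lower at an unadjusted p under 0.05. The part of muscle and B cell content in the values below was not tested. All 10 colon epithelial markers were detected on every array, but so were all 6 hepatocyte markers, so detection alone does not identify the tissue. In Control replicate 1 the summed linear signal was 1091000 over the epithelial markers and 5532 over the hepatocyte markers. Epcam, an epithelial adhesion molecule, had a log2 signal between 13.62 and 13.85, and Krt20, a keratin of surface colonocytes, between 16.64 and 17.02.

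Of the 10 member genes, limma called 1 at an adjusted p under 0.05, Lbp, which was higher in NT-3N. Among all gene features 0.125% were called higher and 0.0182% lower. By single probes, 1 of 15 was called, beside 0.13% of all probes called higher and 0.0385% called lower. Lbp expression was elevated 3.49-fold, while the log2 fold changes of the other 9 members lay between -0.22 and 0.38 with adjusted p of 0.28 or more. At an unadjusted p under 0.05, 4 members were higher, which were Lbp, Myd88, Tlr4 and Cd14, and 0 were lower, beside 4.95% and 4.67% of all features. The arrays of the groups did not overlap for 5 members that were higher in NT-3N and for 1 that was lower, beside 13.5% and 14.8% of all features. The median log2 fold change was 0.09 over the 10 members and -0.019 over all features.

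**Figure D1:**
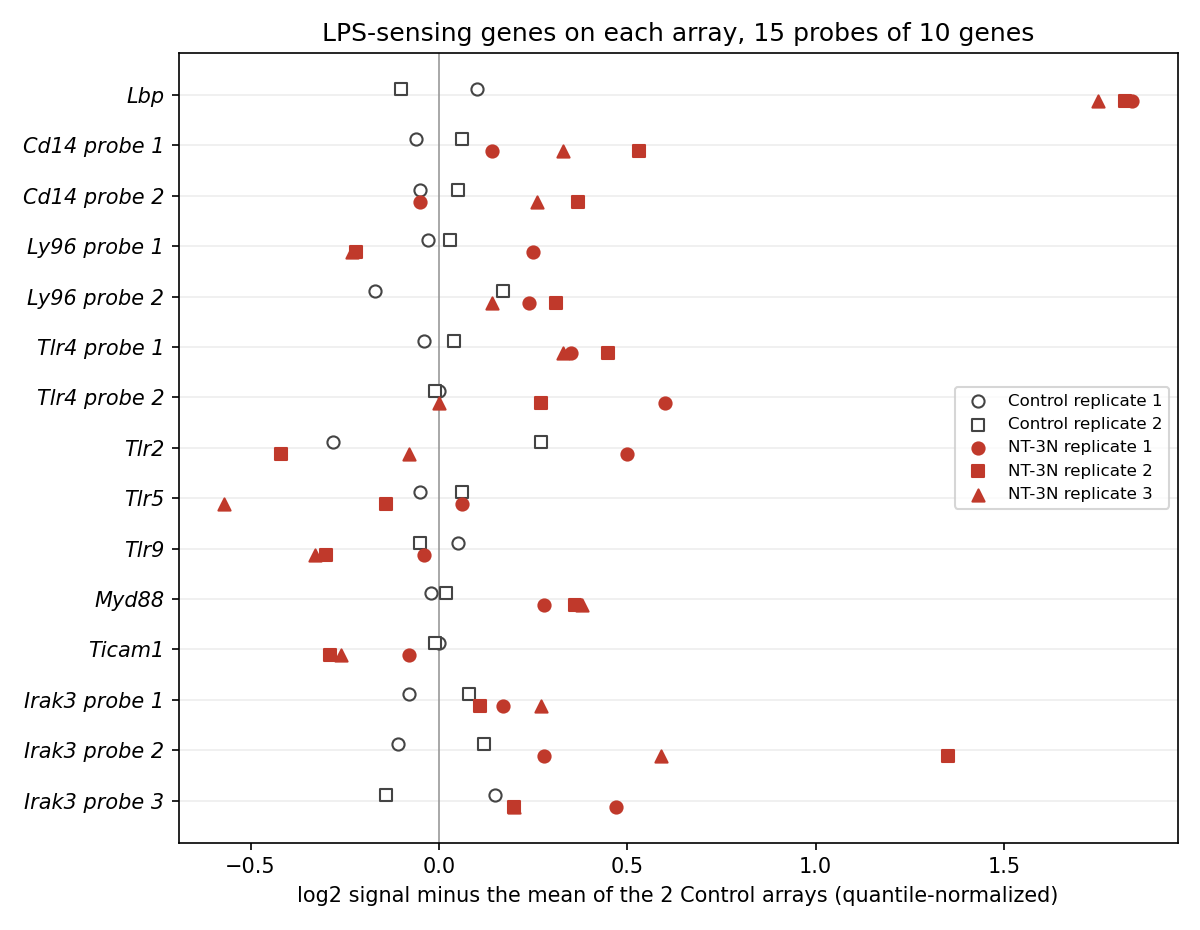
Log2 signal of each member probe on each array, as the difference from the mean of the 2 Control arrays; open symbols are Control and filled red symbols NT-3N, with 1 row per probe and the brightest probe of a gene first. The 3 NT-3N arrays of Lbp lie close together and far from Control, while Tlr2 and the first Ly96 probe are spread to both sides of 0.

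Lbp was measured by 1 probe. Its log2 signal was 6.59 and 6.39 in the Control arrays and 8.33, 8.31 and 8.24 in the NT-3N arrays. Every NT-3N array lay above both Control arrays, and the spread within either group was small beside the gap between them. The group means were 6.49 ± 0.14 (SD, n = 2) and 8.29 ± 0.045 (SD, n = 3). This gave a log2 fold change of 1.80 (standard error 0.13, 95% interval from 1.49 to 2.12, limma adjusted p = 0.012). Among the 32917 features the gene ranked 14 by p-value. The change lay between 1.71 and 1.90 when each array was left out in turn, but the call was lost without NT-3N replicate 2 (limma adjusted p = 0.093) or NT-3N replicate 3 (0.12). It was also lost without a filter on dim probes (0.072), without the intensity trend of the variance (0.057) and with the replicate number as a block (0.41), and normexp background correction lowered the log2 fold change to 1.26 with the call kept.

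Lbp is known as a product of hepatocytes and has been found in fat, and markers of both cell types are given beside it. Over 6 hepatocyte markers the summed linear signal was 5532 and 3116 in Control and 3741, 3815 and 3803 in NT-3N, so the NT-3N arrays lay between the Control arrays. Alb, which encodes albumin, had a log2 signal of 5.51 and 4.47 in Control and 4.79, 5.89 and 5.47 in NT-3N. Over 6 adipocyte markers the sum was 12950 and 7032 in Control and 10580, 6329 and 4058 in NT-3N. Neither sum separated the groups, and 0 of these 12 markers passed an unadjusted p under 0.05 in limma. The part of these cells in the Lbp values was not tested. The genes with the pattern most like that of Lbp over the 5 arrays, out of 16733 named genes detected on all of them, were Gfap, Kcne4 and Ctps. Gfap encodes the intermediate filament of glia, and its profile differed from that of Lbp by a root mean square of 0.06 on the log2 scale. The corresponding value was 0.084 for Kcne4, a potassium channel subunit, and 0.11 for Ctps, which encodes CTP synthase.

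Of the receptor complex for lipopolysaccharide, Cd14 was measured by 2 probes. The brighter gave a log2 signal of 11.14 and 11.26 in Control and 11.34, 11.73 and 11.53 in NT-3N. The NT-3N arrays lay above both Control arrays, by little in replicate 1. The difference of 0.33 on the log2 scale (standard error 0.13, 95% interval from 0.02 to 0.65) did not pass the adjustment (limma adjusted p = 0.50). The second probe had a log2 fold change of 0.19 with overlapping groups, since its lowest NT-3N value, 11.12 in replicate 1, was the same to 2 decimals as that of Control replicate 1. The profiles most like that of Cd14 were those of Snai2, Mettl2 and Nup155, with root mean square differences of 0.016, 0.023 and 0.038 on the log2 scale.

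Tlr4, the signalling receptor for lipopolysaccharide, had a log2 signal of 8.56 and 8.64 in Control and 8.95, 9.05 and 8.93 in NT-3N by its brighter probe. The groups did not overlap. They differed by 0.38 on the log2 scale (standard error 0.11, 95% interval from 0.12 to 0.64), at a limma unadjusted p of 0.012 and an adjusted p of 0.36. The dimmer probe gave 4.55 and 4.54 in Control and 5.15, 4.82 and 4.55 in NT-3N, where replicate 3 lay at the level of the Control arrays. Its log2 fold change of 0.29 had an interval from -0.36 to 0.94.

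The probes of Ly96 differed in direction. The brighter one, for the accession NM_016923, had a log2 signal of 15.14 and 15.20 in Control and 15.42, 14.95 and 14.94 in NT-3N, which is a log2 fold change of -0.07 (95% interval from -0.44 to 0.30). The other, for the transcript accession NM_001159711, had 6.48 and 6.82 in Control and 6.89, 6.96 and 6.79 in NT-3N, with a log2 fold change of 0.23. Neither probe separated the groups, and the sign of the brighter one turned without NT-3N replicate 2 or 3, at 0.008 and 0.014.

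**Figure D2:**
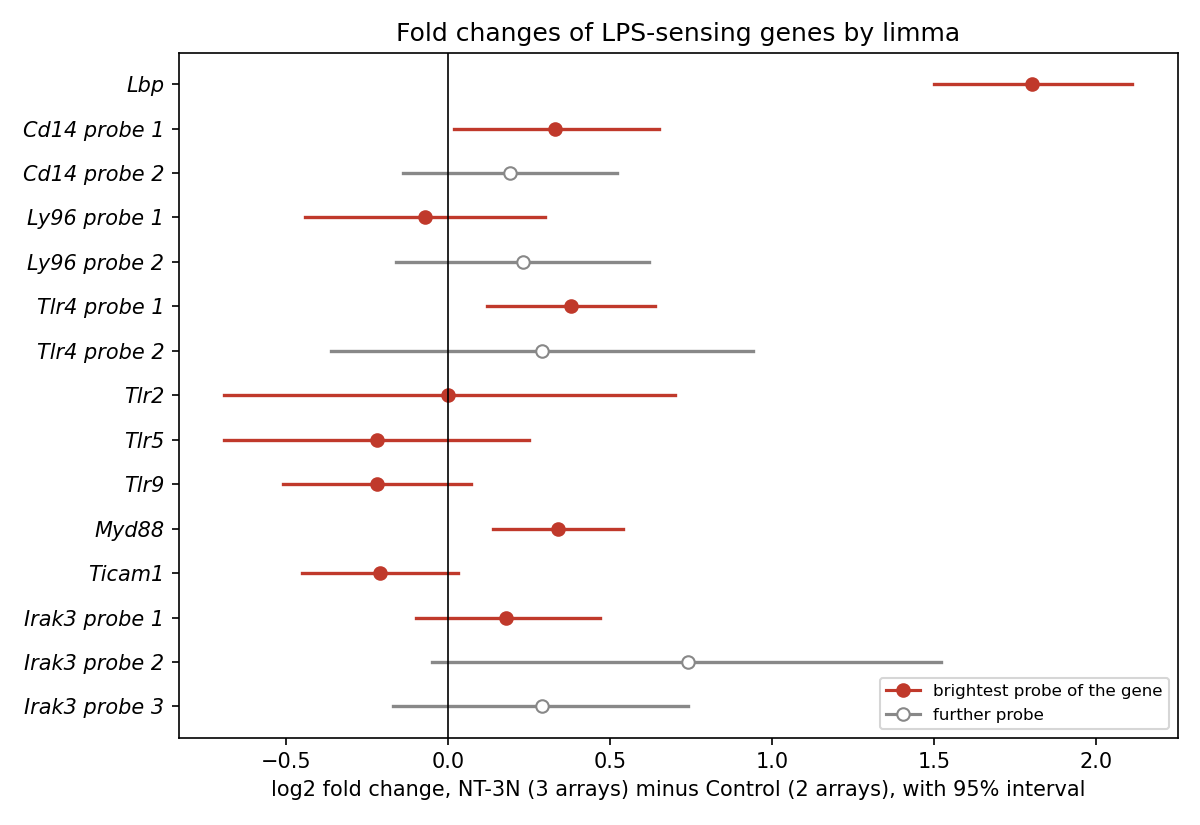
Log2 fold change of each member probe, NT-3N minus Control, with its 95% interval from limma; red filled points are the brightest probe of a gene and grey open points further probes. The intervals of Lbp, Myd88 and the first probes of Tlr4 and Cd14 lie above 0, and all others cross it.

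Among the receptors for other bacterial products, Tlr2 had a log2 signal of 10.36 and 10.91 in Control and 11.14, 10.22 and 10.56 in NT-3N. NT-3N replicate 1 was the highest array and NT-3N replicate 2 the lowest. The log2 fold change rounded to 0.00, with an interval from -0.70 to 0.71 that leaves room for a change in either direction. Without NT-3N replicate 1 it was -0.25 and without Control replicate 1 it was -0.27. Tlr5 had 8.94 and 9.05 in Control and 9.05, 8.85 and 8.42 in NT-3N, a log2 fold change of -0.22 with an interval from -0.69 to 0.26. The lowest value was that of NT-3N replicate 3, and the groups overlapped. Tlr9 had 10.87 and 10.77 in Control and 10.78, 10.52 and 10.49 in NT-3N, a log2 fold change of -0.22 with an interval from -0.51 to 0.07. Here NT-3N replicate 1 lay between the Control arrays.

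TLR9 is known from B cells and plasmacytoid dendritic cells. Control replicate 2, the array with the low B cell sum, was 10.77 for Tlr9, against 10.87 in Control replicate 1. Ms4a1, the gene of CD20, was lower in Control replicate 1 than in replicate 2, with 4.95 and 6.53 in Control and 9.13 to 9.54 in NT-3N, and missed the threshold (limma adjusted p = 0.059). Of 6 plasmacytoid dendritic cell markers 0 passed an unadjusted p under 0.05 in limma, and 4 overlapped between the groups. The other 2, named after their values were seen, were higher without overlap, beside 13.5% of all features. Cox6a2 had a log2 signal of 6.14 and 6.40 in Control and 6.64, 6.42 and 6.68 in NT-3N. The brightest Lag3 probe had 5.13 and 5.66 in Control and 5.90, 5.73 and 5.79 in NT-3N. A further tested Lag3 probe changed in the opposite direction. The part of B cells and plasmacytoid dendritic cells in the Tlr9 values was not tested.

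CD14, TLR4 and TLR2 are displayed by macrophages and neutrophils. All 12 macrophage and monocyte markers were tested, and limma called 0 over all features, with 1 at an unadjusted p under 0.05, Mrc1, whose log2 fold change was 0.53. Their summed linear signal was 39830 and 50250 in Control and 41340, 51260 and 47480 in NT-3N. Adgre1, which encodes F4/80, had a log2 signal of 9.73 and 9.71 in Control and 9.15, 9.85 and 9.66 in NT-3N, and Csf1r had a log2 fold change of 0.02. Of 12 neutrophil markers 8 were tested and limma called 0 over all features, with 1 lower at an unadjusted p under 0.05, Mpo, whose log2 fold change was -0.57. S100a8, S100a9 and Mmp9 had an unadjusted p under 0.05 in the other direction, but none of the 3 was detected on a Control array, so that they entered the test through the NT-3N arrays alone and their number is no result. Mmp9 was detected on 2 of 3 NT-3N arrays. S100a8 and S100a9, which encode calprotectin, were detected on all 3 NT-3N arrays and on neither Control array. The NT-3N arrays were at least 13.9-fold higher for S100a9 and at least 3.61-fold higher for S100a8, with limma adjusted p of 0.062 and 0.22. For each bound, a Control array counted with the dimmest signal of any detected probe on it, or with the value of the probe itself where that was higher. The highest S100a8 and S100a9 values were in NT-3N replicate 1, as was the highest Tlr2 value, whereas the brighter probes of Cd14 and Tlr4 were highest in NT-3N replicate 2. Csf3r gave 99% of the summed signal of the list, and without it the sum was 702.5 and 603.2 in Control and 1139, 638.7 and 717.3 in NT-3N. The part of these cells in the Cd14, Tlr4 and Tlr2 values was not tested.

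Of the adaptors, Myd88 had the smaller p-value. Its log2 signal was 11.60 and 11.64 in Control and 11.90, 11.98 and 12.00 in NT-3N. The groups did not overlap and the spread within each was narrow. The shift was 0.34 on the log2 scale (standard error 0.082, 95% interval from 0.14 to 0.54), at a limma unadjusted p of 0.0054 and an adjusted p of 0.28. It lay between 0.32 and 0.38 over all 17 alternatives. Ticam1 had a log2 signal of 11.05 and 11.04 in Control and 10.97, 10.76 and 10.79 in NT-3N. It was the 1 member whose NT-3N arrays all lay below Control. Its log2 fold change was -0.21 with an interval from -0.45 to 0.03 and a limma adjusted p of 0.58.

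Irak3, the inhibitor, was measured by 3 probes, and in each of them every NT-3N array lay above both Control arrays. The brightest had a log2 signal of 8.11 and 8.27 in Control and 8.36, 8.30 and 8.46 in NT-3N, a log2 fold change of 0.18 with an interval from -0.11 to 0.48 (limma adjusted p = 0.68). The other probes had log2 fold changes of 0.74 and 0.29, each with an interval that included 0. In the first of these NT-3N replicate 2 was highest, with 6.80 against 5.34 and 5.57 in Control. The 3 probes target 1 transcript and are not independent of each other.

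The region before the start site is shown from the RefSeq promoter table, which held windows for 6 of the 10 members. No window is shown for Lbp, Cd14, Tlr4 or Ly96. The 250 bases before the start are printed for Myd88 and Ticam1, the adaptors whose arrays separated in opposite directions, and for Tlr2, whose arrays did not separate. Build GRCm38.p6 and the minus strand apply to all of them, at chr9:119340019-119340268 for Myd88, chr17:56276768-56277017 for Ticam1 and chr3:83841609-83841858 for Tlr2. Capitals mark matches to the motifs searched on both strands, TTCNNNGAA for STAT factors, TTGCNNAA for C/EBP factors, GGG, any 5 bases and CC for NF-kB and TGANTCA for AP-1.
Myd88: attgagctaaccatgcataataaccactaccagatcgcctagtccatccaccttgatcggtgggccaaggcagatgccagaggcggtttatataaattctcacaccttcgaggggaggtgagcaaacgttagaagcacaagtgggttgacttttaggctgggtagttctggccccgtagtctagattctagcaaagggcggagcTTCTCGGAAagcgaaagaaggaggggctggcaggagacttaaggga
Ticam1: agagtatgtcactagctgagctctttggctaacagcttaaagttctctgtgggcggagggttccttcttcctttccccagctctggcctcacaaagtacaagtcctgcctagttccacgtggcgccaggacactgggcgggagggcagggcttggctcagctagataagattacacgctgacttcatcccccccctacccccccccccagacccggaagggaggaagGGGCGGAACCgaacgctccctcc
Tlr2: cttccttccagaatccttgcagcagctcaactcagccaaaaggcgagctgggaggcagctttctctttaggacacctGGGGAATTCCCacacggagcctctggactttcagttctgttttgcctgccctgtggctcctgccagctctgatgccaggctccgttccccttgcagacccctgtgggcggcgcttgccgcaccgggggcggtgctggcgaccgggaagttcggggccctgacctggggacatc

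In windows that also hold 50 bases after the start, the Myd88 window had 1 match to the STAT motif, TTCTCGGAA, with its first base at -46 from the start. This motif was found in 8.3% of all 32851 windows of the table. Ticam1 had 1 match to the NF-kB motif and Tlr2 had 5 overlapping ones at 2 places, the second across the start site and so not marked above, but 50.8% of all windows held this motif. Tlr5 also had 1 match to the NF-kB motif, and 1 of the 2 Irak3 windows had 4. Tlr9 had 1 AP-1 match, TGACTCA, where 7.81% of all windows had one. The other Irak3 window had 1 C/EBP match, where 10.8% had one. These are matches of letters and no binding was measured.

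Beyond the members, 7 lists with 102 other entries for microbial sensing were examined, of which 93 were tested. Over all features limma called 1 of them higher, Sting1, and 0 lower, beside 0.125% and 0.0182% of all features. At an unadjusted p under 0.05, 13 were higher and 0 lower, beside 4.95% and 4.67% of all features. The 13 include Il6, which passed the detection filter through the NT-3N arrays only, so their number is no result. Sting1, the adaptor of cytosolic DNA sensing that signals from the endoplasmic reticulum, was listed among 18 other microbial sensors. Its log2 signal was 10.09 and 9.88 in Control and 11.42, 11.87 and 11.93 in NT-3N, so that every NT-3N array lay above both Control arrays. They differed 3.37-fold, or by 1.75 on the log2 scale (standard error 0.17, limma adjusted p = 0.036). This call was lost without either Control array (0.099 without replicate 1, 0.096 without replicate 2), without NT-3N replicate 2 (0.14) or 3 (0.21), with no filter (0.14), with no trend (0.15) and with the replicate block (0.49). The other 14 tested genes of this list were not called, and the median over the 15 was 0.04.

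**Figure D3:**
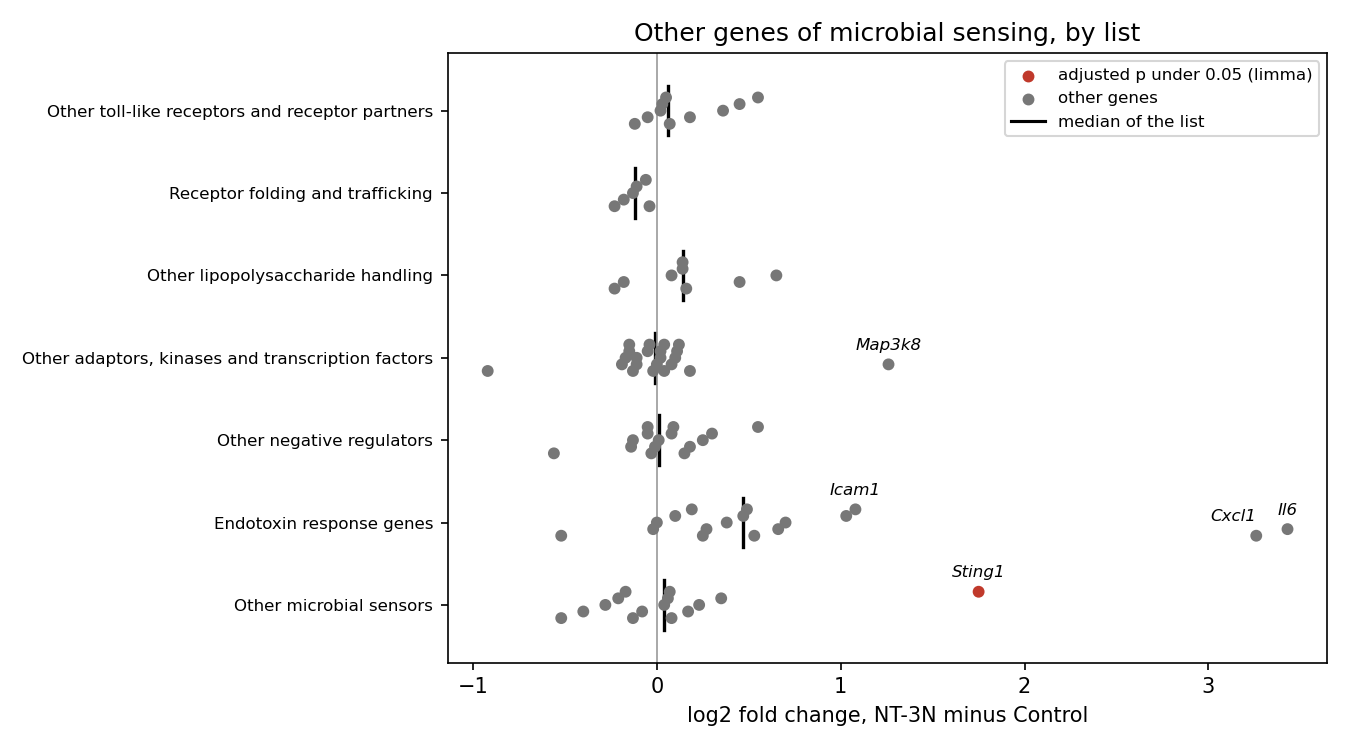
Fitted log2 fold change, NT-3N minus Control, of each tested gene in 7 lists of microbial sensing genes; red points had a limma adjusted p under 0.05 and black bars are list medians. Only Sting1 is red, and Il6 and Cxcl1, at the far right, were not detected on all Control arrays, so that their fitted values are no measured fold.

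Among 22 tested adaptors, kinases and transcription factors, with a median log2 fold change of -0.01, 0 were called and 1 had an unadjusted p under 0.05 in limma. This was Map3k8, the kinase TPL2 that links toll-like receptors to ERK. Its log2 signal was 5.60 and 5.49 in Control and 6.88, 6.81 and 6.72 in NT-3N, with no overlap. Its log2 fold change of 1.26 missed the threshold with a limma adjusted p of 0.069, and it passed with array weights (0.029). Of 10 other toll-like receptors and partners tested, with a median of 0.06, 0 were called. Tlr1, a partner of TLR2, was the 1 with an unadjusted p under 0.05, with 11.28 in both Control arrays and 11.82, 11.57 and 11.53 in NT-3N, and its limma adjusted p was 0.40.

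Of 8 tested genes of other lipopolysaccharide handling, with a median of 0.14, 0 were called. Casp4, the mouse caspase-11 that binds lipopolysaccharide in the cytosol, had a log2 fold change of 0.45 and Msr1, a scavenger receptor, one of 0.65, with limma adjusted p of 0.24 and 0.52. All 6 genes of receptor folding and trafficking had a log2 fold change below 0, with a median of -0.12, but 0 were called and 0 had an unadjusted p under 0.05 in limma. Of 15 negative regulators 0 were called and the median was 0.01. Dusp1, a phosphatase acting on MAP kinases, had a log2 fold change of 0.55 and Tnfaip3, which encodes the inhibitor A20, one of 0.30, with limma adjusted p of 0.29 and 0.51.

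Genes that endotoxin is known to induce were also listed, and the part of toll-like receptors in their values was not tested. Of 20 listed 17 were tested, and limma called 0 over all features. At an unadjusted p under 0.05, 6 were higher and 0 lower, beside 4.95% and 4.67% of all features. The 6 include Il6, which passed the detection filter through the NT-3N arrays only, so their number is no result. The median log2 fold change was 0.47, with 15 genes above 0 and 2 below. Il6, an interleukin of acute inflammation, was detected on 2 of 3 NT-3N arrays and on neither Control array, and its NT-3N mean was at least 2.72-fold above Control (limma adjusted p = 0.13). Cxcl1, a neutrophil attractant, was detected on 1 of 2 Control arrays and on all 3 NT-3N arrays, with a log2 signal of 2.37 and 3.91 in Control and 7.0, 6.31 and 5.90 in NT-3N (limma adjusted p = 0.13). Icam1, an adhesion molecule, had a log2 fold change of 1.08 (limma adjusted p = 0.18). Lcn2, Ccl2 and Il1b, named after their values were seen, were also higher without overlap. Their log2 fold changes were 1.03, 0.70 and 0.49, with limma adjusted p of 0.27, 0.51 and 0.48. Other genes of this list, likewise named after their values were seen, did not separate the groups in this direction. Tnf had a log2 fold change of -0.02 and Nfkbia, which encodes an inhibitor of NF-kB, one of 0.00. Saa3, an acute phase protein, had one of 0.10 with a standard error of 0.8, which leaves room for a change in either direction. Its log2 signal was 10.74 and 10.69 in Control and 12.52, 9.51 and 10.39 in NT-3N. Ptgs2, the gene of cyclooxygenase-2, had a log2 signal of 7.36 and 7.25 in Control and 6.53, 7.18 and 6.65 in NT-3N, with every NT-3N array below Control (limma adjusted p = 0.53). With the local-pooled-error test Cxcl1 was called, although only 1 of 2 Control arrays detected it. Without Control replicate 2 its log2 fold change was 4.03, with the 2.37 of Control replicate 1 as the only Control value. Il6 was called with array weights (limma adjusted p = 0.029) and without NT-3N replicate 1 (0.039), but it entered the test through the NT-3N arrays alone.

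**Figure D4:**
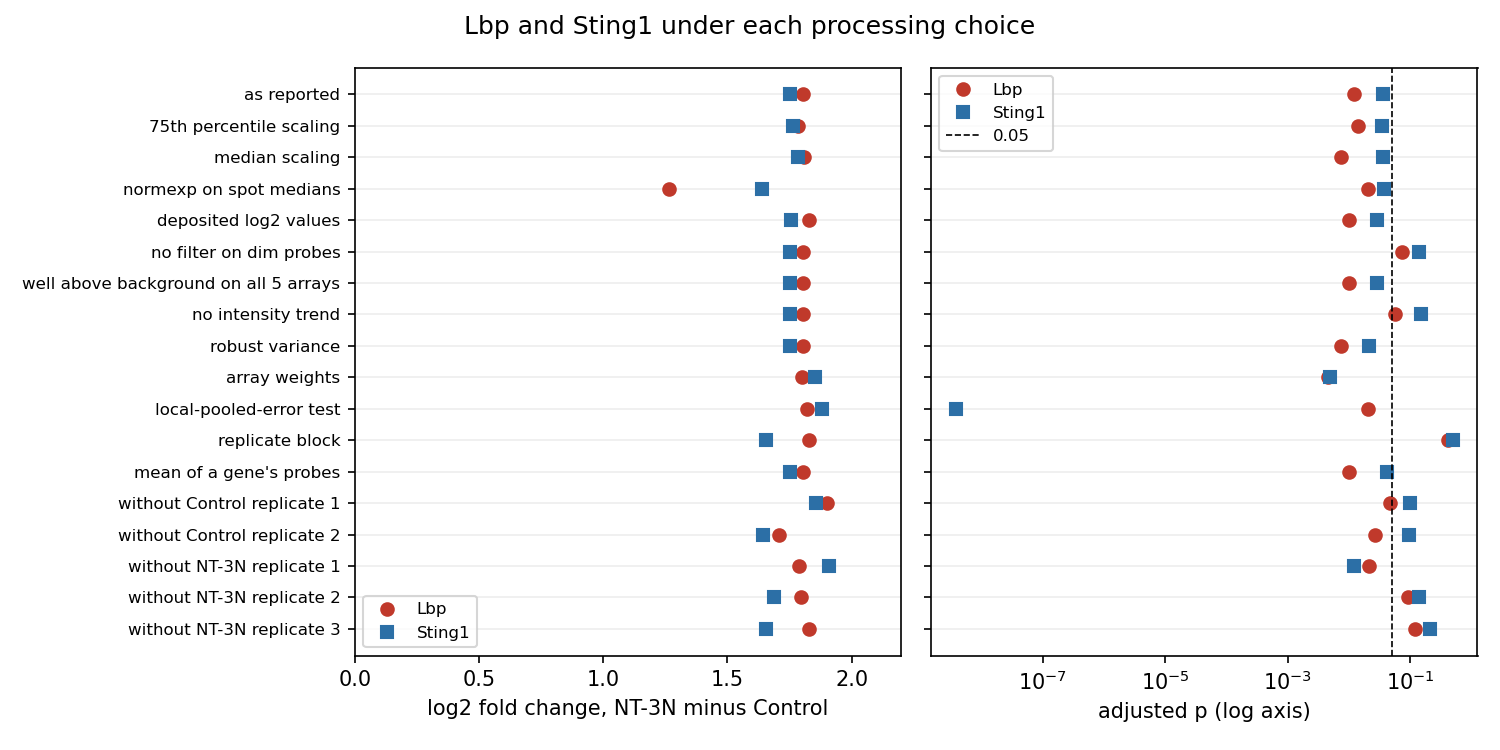
Log2 fold change (left) and adjusted p on a log axis (right) of Lbp and Sting1 as reported and under each of 17 alternatives; the dashed line is 0.05. The fold changes of Lbp lie between 1.26 and 1.90 and those of Sting1 between 1.64 and 1.91, while adjusted p crosses 0.05 for both genes.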

How the data were processed

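Total RNA of colon was labelled with Cy3 and hybridised to SurePrint G3 mouse arrays, and the authors read the spots out with Agilent Feature Extraction (11.0.1.1). Intensity is the unit of the deposited files, background-subtracted and detrended within each array and not scaled between arrays. The authors also deposited quantile-normalized log2 values, which were used as an alternative only.

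Control spots and 69 to 184 outlier spots per array, of 59305, were left out. The processed signal was log2-transformed, averaged over the spots of a probe and quantile-normalized over the 5 arrays. Accessions without version were matched to RefSeq symbols of GRCm38.p6, which named 32994 of 56605 probes. Probes entered the test when at least 2 arrays detected them and both Control and at least 2 NT-3N arrays gave a value, and a gene was represented by its brightest tested probe. Background left in dim spots can compress fold changes.

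The comparison used R 4.3.3 and limma 3.58.1 (lmFit, eBayes with intensity trend, two-sided, Benjamini-Hochberg over all features). The study used a local-pooled-error test, which was rewritten from its description as an alternative. The tests were checked on simulated data. An exact two-sided permutation test over the 10 splits of 5 arrays cannot go below p = 0.1, and the number of arrays limits every value. Each array holds another mouse. The members and lists were chosen with earlier results of these data known. All members are named, with pathway genes that had an adjusted p under 0.05, up to 3 per list and direction with an unadjusted p under 0.05 and no overlap, and the leading markers of the lists that bear on a member. Lists of T cell, fibroblast, endothelial and smooth muscle markers were also computed, with 0 genes called and median log2 fold changes of 0.08, 0.05, 0.15 and -0.28. Of 8 fibroblast markers 5 lay above 0 and 3 below. Pdpn, named after its value was seen, had a log2 fold change of 1.49 (limma adjusted p = 0.067). Of 6 smooth muscle markers 5 were lower without overlap, beside 14.8% of all features. Alternatives covered scaling, background, the deposited values, the filter, the variance model, weights, the test, the replicate block, the probe rule and each array left out.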

Additional observations from a re-analysis of the deposited data

How the results depend on the processing

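The 10 member genes were followed through 17 alternatives, which gave 170 values. The sign and the side of the threshold stayed as reported in 157 of them, the call of Lbp was lost in 5, and the sign turned in 8, all of Ly96 and Tlr2. The log2 fold change of Ly96 was 0.014 with the replicate block, 0.08 with the mean of the probes, 0.008 without NT-3N replicate 2 and 0.014 without NT-3N replicate 3, and down to -0.226 without replicate 1. That of Tlr2 was -0.205 with array weights, -0.08 with the local-pooled-error test, -0.271 when Control replicate 1 was left out and -0.249 when NT-3N replicate 1 was, and up to 0.277 without Control replicate 2. The cause was not tested.

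Of the members 1 gene and 1 probe, of Lbp, were called higher as reported, against 0 and 0 with no filter on dim probes, with no intensity trend and with the replicate block, and 0 to 1 when each array was left out; 0 members were called lower throughout. Mice with 1 replicate number in common were not treated as pairs, since same-numbered mice deviated from their groups with a correlation of only 0.13 (number 1) and 0.036 (number 2). Over all features, 41 were called higher and 6 lower as reported. These counts were 2 and 0 with no filter and with no trend, 0 and 0 with the replicate block, 128 and 48 with array weights, and 188 and 154 with the local-pooled-error test. The lower count was 11 with the deposited log2 values, 13 with probes well above background on all 5 arrays and 15 with robust variance. Leaving out single arrays gave 0 to 112 higher, with 112 when Control replicate 2 was absent, and 0 to 16 lower, with 16 when NT-3N replicate 1 was absent.

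Of the pathway lists 1 gene was called higher and 0 lower as reported. The higher count was 0 with no filter, with no trend and with the replicate block, 3 with array weights and 2 with the local-pooled-error test, which also called 1 lower, Irf7. It ranged from 0 to 2 without each array. Of the marker lists 0 were called as reported, against 2 higher with median scaling and with normexp, 1 with probes above background on all arrays and with robust variance, 3 with array weights, and 3 higher and 2 lower with the local-pooled-error test. Leaving out single arrays gave 0 to 4 higher, with 4 when Control replicate 1 was absent, and 0 lower. The normexp correction used the median spot signal. With 1 Control array left out, the spread comes from the NT-3N group alone. Unadjusted p under 0.05 was reached by 1138 features higher and 1350 lower with the block.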
